A study of Mus musculus with 9 samples.

Results

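The tumour suppressor p53 is a transcription factor that is held at a low level by Mdm2 and Mdm4 and that, after DNA damage or other stress, switches on genes for growth arrest, cell death, DNA repair and metabolic control. The Gadd45 genes encode small acidic stress proteins that bind kinases of the p38 and JNK pathways and cell cycle proteins, and Gadd45a is a classical p53 target, while Gadd45b is better known as a gene induced by NF-kappa-B and TGF-beta. 4T1 is a transplantable mammary carcinoma of the mouse that can metastasise to several organs and is widely described as lacking functional p53, which is background and was not measured here. Several genes of the p53 target list are also switched on by other factors.

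The set comprised 32 listed genes: p53 itself, its regulators, p53-responsive genes and the Gadd45 family. Each was represented by the probe set with the highest mean over all arrays among those annotated to that gene alone, and 28 of the 32 had such a probe set, out of 19938 genes in all. Each of the 28 had only 1. Trp53, Bax and Gdf15 had no named probe set in the annotation used and are not analysed here, so no level of Trp53 can be given. The probe set that covers Cdkn1a is shared with another gene, so it names neither.

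The lines were grown from 4T1 tumours of 9 mice, 3 per origin, and each was measured on 1 array. The 4T1-T2 lines came from primary tumours, the 4T1-LM2 lines from lung metastases and the 4T1-BM2 lines from brain metastases. Below, each line is named by its origin (primary, lung or brain) and the mouse number in its label. No treatment, genotype change, mouse strain or age is given in the labels. All 9 were grown and extracted together after thawing, and the values are thus those of tumour cells in culture. Lines of the same origin carry 1 name in the labels although each came from another mouse, and p-values measure only the spread between these lines.

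Values are log2 intensities, with array medians between 5.06 and 5.19. The median over probe sets with no gene symbol was 4.21, and a gene with a group mean below that may lie at background. Of the members, Fas and Eda2r had such means. They are described by level alone, but they were tested and are kept in the counts and shares of the 28. All 8 epithelial markers, such as Krt8 and Cdh1, lay above 4.21 in each origin. Of the other marker lists, Ptprc and Adgre1 (leukocytes), Dcn and Lum (fibroblasts) and Kdr and Tek (endothelium) lay below it in the mean of each origin. So did Aqp4 (astrocytes) and Scgb1a1 (airway). In the same lists, Cd68 and Cd3e (leukocytes), Col1a1 and Pdgfra (fibroblasts), Vwf (endothelium), Mbp (brain) and Sftpb (lung) lay above 4.21 in every line. Above it in each origin were 5 of 8 fibroblast, 2 of 8 leukocyte and 7 of 9 brain markers, 2 or 3 of 6 endothelial markers and 4 or 5 of 6 lung markers. The summed log2 level of the 8 epithelial markers was 87.4 to 88.3 in brain lines, 82.0 to 84.9 in lung lines and 80.1 to 83.4 in primary lines. The part of this epithelial difference in the results below was not tested. The summed levels of the fibroblast, leukocyte, endothelial, brain and lung marker lists overlapped between the origins. Brain line 3 and lung line 1 had the widest spread around the gene medians, with interquartile ranges of 0.178 and 0.164 against at most 0.126 in the other lines.

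In brain lines 5 of the 28 genes were higher than in primary lines, 1 was lower and 22 did not pass. Gadd45b rose most, by 3.64-fold, followed by the stress-responsive kinase gene Plk2 (2.01-fold), Zmat3 (1.51-fold), the death receptor gene Tnfrsf10b (1.46-fold) and the antiproliferative gene Btg2 (1.41-fold). Trp53inp1, which encodes a nuclear protein that promotes autophagy and cell death under stress, was 1.90-fold lower. The threshold was a limma p under 0.05 after Benjamini-Hochberg adjustment over the 19938 genes, in a fit to all 9 arrays. The 6 calls were 21.4% of the 28 genes, where 3.13% of all genes tested were called, 1.56% as higher and 1.57% as lower. With the dimmest 33.3% of genes left out before testing, 828 of 13292 genes and 7 members were called. The members left by this filter were not counted, so this gives no share of members. The gene list was chosen with earlier results of these data known. Its shares, here and below, are descriptions and not tests. The median log2 change of the 28 genes was 0.11, against 0.00 over all genes, and 16 of the 28 lay above 0, as did 51.8% of all genes. Over all genes 311 were higher and 313 lower, a split that became 313 and 199 after median centring of the arrays. By the F test over the 3 origins the same 6 genes passed, where 2.36% of all genes did. The same 6 genes also passed against primary lines after that centring and after another quantile normalization.

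**Figure D1:**
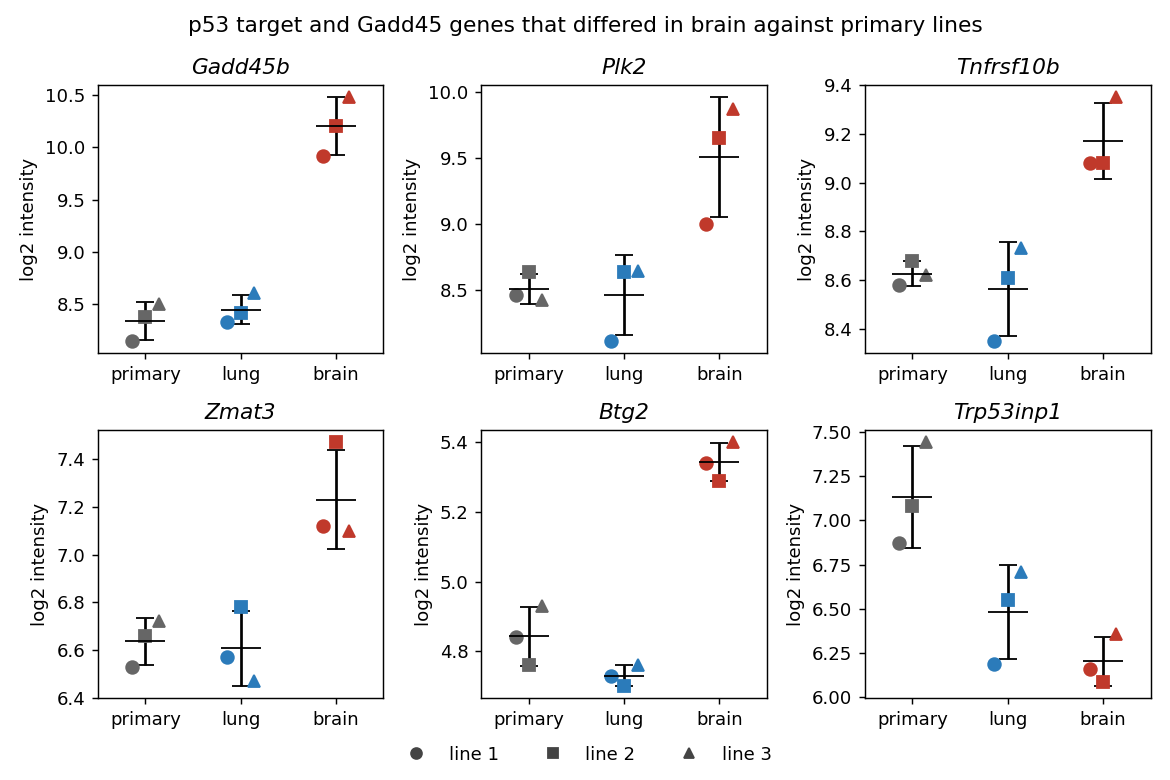
Log2 intensity of the 6 genes called in brain against primary lines, by origin. Points are single lines, with a shape per line number, horizontal bars are means and error bars are SDs over 3 lines; in 5 of the panels each brain line lies above each other line, and in the panel of Trp53inp1 the 3 primary lines lie above all others.

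Gadd45b was the member with the widest range over the 9 lines, 2.34 on the log2 scale. Its log2 level was 8.14, 8.37 and 8.50 in the primary lines, 8.32, 8.41 and 8.60 in the lung lines, and 9.92, 10.21 and 10.48 in the brain lines. The brain lines stood more than 1 log2 unit above the highest other line, while primary and lung lines overlapped. The change in brain against primary lines was 1.87 ± 0.15 (SE, 3 lines per origin, limma adjusted p = 8.9e-04), and against lung lines it was 1.76 ± 0.15 (limma adjusted p = 0.00187). Both calls held in all 16 alternatives run, including each line left out in turn, with changes of 1.73 to 2.01 and of 1.62 to 1.90 in those fits.

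The other Gadd45 genes did not pass. Gadd45a, which restrains the G2 to M transition, had log2 levels of 7.89, 7.90 and 8.06 in primary lines, 7.52, 7.94 and 7.96 in lung lines, and 8.0, 7.94 and 8.74 in brain lines. Brain line 3 stood apart from the other lines, which overlapped across origins. Its change in brain against primary lines was 0.28 ± 0.20 (SE, 3 lines per origin, limma adjusted p = 0.601), with a 95% interval from -0.17 to 0.73. Gadd45g, the third member of the family, had levels of 6.61, 6.85 and 6.94 in primary lines, 6.61, 6.80 and 6.65 in lung lines, and 6.91, 6.91 and 7.16 in brain lines. Each brain line was above each lung line, but the change of 0.31 ± 0.11 did not pass (SE, 3 lines per origin, limma adjusted p = 0.198). Whether the change of Gadd45b differs from those of its relatives was not tested.

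The sequences around the starts of Gadd45b and Gadd45a are shown because these relatives are of one family, and Gadd45b was called while Gadd45a was not. Those of Btg2 and Plk2 were added as genes that rose with Gadd45b. Zmat3 and Tnfrsf10b also rose, and their sequences are not shown. The printed sequences run from 250 bases before to 50 bases after the RefSeq start, 5′ to 3′ on the gene's strand, in build GRCm38.p6. Capitals mark matches, on either strand, to 6 motifs chosen after the sequences had been seen: the p53 consensus decamer, the cyclic AMP response element TGACGTCA, the AP-1 element TGAGTCA, the octamer ATGCAAAT, the CCAAT box and the E-box CACGTG.
Gadd45b, chr10:80929841-80930140, plus strand: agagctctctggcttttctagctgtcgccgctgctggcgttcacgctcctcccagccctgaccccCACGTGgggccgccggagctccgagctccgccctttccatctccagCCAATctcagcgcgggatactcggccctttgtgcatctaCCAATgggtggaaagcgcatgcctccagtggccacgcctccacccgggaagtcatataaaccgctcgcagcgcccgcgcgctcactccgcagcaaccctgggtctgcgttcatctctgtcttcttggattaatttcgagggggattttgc
Gadd45a, chr6:67037358-67037657, minus strand: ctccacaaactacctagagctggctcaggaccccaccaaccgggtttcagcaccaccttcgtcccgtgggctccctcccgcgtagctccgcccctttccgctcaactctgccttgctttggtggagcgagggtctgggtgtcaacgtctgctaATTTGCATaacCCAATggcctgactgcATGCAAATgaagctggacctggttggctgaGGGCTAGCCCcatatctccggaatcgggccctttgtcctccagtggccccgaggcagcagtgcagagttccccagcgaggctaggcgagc
Btg2, chr1:134079106-134079405, minus strand: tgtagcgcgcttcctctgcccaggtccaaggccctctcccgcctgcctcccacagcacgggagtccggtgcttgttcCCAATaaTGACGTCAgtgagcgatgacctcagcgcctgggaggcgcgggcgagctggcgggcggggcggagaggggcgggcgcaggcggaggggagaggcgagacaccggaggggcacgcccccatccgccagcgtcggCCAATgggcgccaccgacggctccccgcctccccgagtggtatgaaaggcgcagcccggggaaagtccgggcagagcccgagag
Plk2, chr13:110394794-110395093, plus strand: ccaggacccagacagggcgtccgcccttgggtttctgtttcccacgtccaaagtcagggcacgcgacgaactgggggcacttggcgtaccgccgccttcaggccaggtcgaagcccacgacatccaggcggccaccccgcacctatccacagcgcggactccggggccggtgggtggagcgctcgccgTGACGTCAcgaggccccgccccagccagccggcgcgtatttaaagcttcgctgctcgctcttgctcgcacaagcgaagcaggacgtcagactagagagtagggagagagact

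Btg2 and Plk2 each held the cyclic AMP response element, which starts 166 and 62 bases before the start of the gene. They were the only 2 holders among the 20 measured members with a sequence in the RefSeq table. Of all 32851 sequences of this length, 1.79% held that element. As the motif was chosen after the printed sequences had been seen, this count is no test. Gadd45b held 2 CCAAT boxes, which start 139 and 100 bases before the gene, and an E-box 185 bases before it. Gadd45a held a p53 decamer 40 bases before its start, a CCAAT box and the octamer 97 and 70 bases before its start. CCAAT was found in 37.4% of all sequences, the E-box in 7.15%, the octamer in 1.74%, the AP-1 element in 5.20% and the p53 decamer in 8.36%. Among the 20 members the decamer was found in 7: Aen, Ccng1, Ei24, Gadd45a, Mdm2, Polk and Sesn1, none of which passed in any comparison. Whether holding the decamer goes with being called was not tested, and sites outside this window were not searched. The decamer was not found in the window of Gadd45b, Btg2 or Plk2, which says only that these letters are not there. A sequence was at hand for 20 of the 28 measured members. Zmat3, Tnfrsf10b and Trp53inp1 were listed with none of the motifs, which a missing sequence would also give. A match is a description of letters and does not show binding.

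Of the p53 regulators, neither Mdm2 nor Mdm4 passed in any comparison. Mdm2 encodes the ubiquitin ligase that marks p53 for destruction and is itself a p53 target. Its log2 levels were 8.87, 8.82 and 8.70 in primary lines, 8.44, 8.49 and 8.58 in lung lines, and 8.67, 8.77 and 8.82 in brain lines. Each lung line was below each line of the other origins, while brain and primary lines overlapped. The change in lung against primary lines was -0.29 ± 0.07 (SE, 3 lines per origin, unadjusted p = 0.00303, limma adjusted p = 0.975), and in brain against primary lines it was -0.04 ± 0.07 with a 95% interval from -0.21 to 0.12. Mdm4, a relative that binds p53 and blocks its activity, ranged from 7.11 in lung line 2 to 7.75 in brain line 1, with overlap between all origins.

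Among the growth arrest genes, Btg2 and Plk2 rose, and Ccng1 and Plk3 did not pass. Btg2, which slows the cell cycle and promotes mRNA deadenylation, had low log2 levels of 4.84, 4.76 and 4.93 in primary lines, 4.73, 4.70 and 4.76 in lung lines, and 5.34, 5.29 and 5.40 in brain lines. The spread within each origin was small, at most 0.08 (SD), and the brain lines stood clear of the rest. The change was 0.50 ± 0.07 against primary lines (SE, 3 lines per origin, limma adjusted p = 0.00568) and 0.61 ± 0.07 against lung lines (limma adjusted p = 0.00499). Both calls held in all 16 alternatives.

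Plk2 encodes a polo-like kinase linked to centriole duplication and stress checkpoints. It had log2 levels of 8.46, 8.63 and 8.42 in primary lines, 8.11, 8.63 and 8.64 in lung lines, and 9.0, 9.65 and 9.87 in brain lines. The brain lines were above all others but far apart from each other, and the SD within origins, 0.32, was the largest of the 28 genes. The change was 1.01 ± 0.21 against primary lines (SE, 3 lines per origin, limma adjusted p = 0.0367). That call was lost without primary line 1 (0.115), 2 (0.0874) or 3 (0.111), lung line 2 (0.0633) or 3 (0.0626), or brain line 2 (0.115) or 3 (0.101), in a range from 0.0112 to 0.115 over all alternatives. Plk3, a related kinase, showed 7.18 in brain line 1 and 7.97 in brain line 2, the lowest and the highest of the 9 lines. Ccng1, which encodes cyclin G1, lay between 9.11 and 9.43 in all lines.

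Among the 12 cell death genes measured, Tnfrsf10b and Zmat3 rose and Trp53inp1 fell in brain against primary lines, and 9 did not pass. Tnfrsf10b, the mouse receptor for the death ligand TRAIL, had log2 levels of 8.58, 8.68 and 8.62 in primary lines, 8.35, 8.61 and 8.73 in lung lines, and 9.08, 9.08 and 9.35 in brain lines. Each brain line lay above each other line. The change was 0.54 ± 0.11 (SE, 3 lines per origin, limma adjusted p = 0.0287). It did not pass without primary line 1 (0.0972), 2 (0.0758) or 3 (0.0855), lung line 2 (0.0535), or brain line 1 (0.0518), 2 (0.0582) or 3 (0.0774), with a range from 0.0170 to 0.0972 over all alternatives.

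Zmat3, a zinc finger protein that binds RNA and is a long-known p53 target, had log2 levels of 6.53, 6.66 and 6.72 in primary lines, 6.57, 6.78 and 6.47 in lung lines, and 7.12, 7.47 and 7.10 in brain lines. Again the brain lines did not overlap with the others. The change was 0.60 ± 0.12 (SE, 3 lines per origin, limma adjusted p = 0.0273), and the call was lost without primary line 1 (0.0984), 2 (0.0828) or 3 (0.0609) or brain line 2 (0.0646), in a range from 0.0144 to 0.0984.

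Trp53inp1 went the other way. Its log2 levels were 6.87, 7.08 and 7.44 in primary lines, 6.19, 6.55 and 6.71 in lung lines, and 6.16, 6.09 and 6.36 in brain lines. The primary lines were above all metastasis lines, and lung and brain lines overlapped. The change in brain against primary lines was -0.92 ± 0.16 (SE, 3 lines per origin, limma adjusted p = 0.0180). Without primary line 2 (0.0609), brain line 1 (0.0557) or brain line 2 (0.0650) it did not pass, in a range from 0.00307 to 0.0683 over all alternatives. In lung against primary lines, which share the same primary lines, the change was -0.65 ± 0.16 and did not pass (limma adjusted p = 0.975).

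The other 9 cell death genes did not pass. Bbc3 and Pmaip1, which encode the BH3-only proteins Puma and Noxa, lay between 5.79 and 6.04 and between 4.79 and 5.20 over all 9 lines. Their changes in brain against primary lines were -0.04 and 0.03, with 95% intervals from -0.23 to 0.14 and from -0.22 to 0.28. Apaf1, the scaffold of the apoptosome, ranged from 7.91 to 8.51, with its highest level in brain line 3. Perp, a junction protein of the desmosome that also takes part in p53-dependent death, had a change of 0.35 ± 0.12 (SE, 3 lines per origin, limma adjusted p = 0.170). Aen, which encodes a nuclease, was higher in each brain line than in each primary line, with a change of 0.30 ± 0.12 that did not pass (SE, 3 lines per origin, limma adjusted p = 0.262). Ei24 and Phlda3, an autophagy factor and a repressor of Akt, had changes of 0.10 and -0.03. The receptor genes Fas and Eda2r had group means from 3.51 to 3.82 and from 3.15 to 3.25, below the 4.21 median of unnamed probe sets.

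None of the 7 genes of repair, nucleotide supply and metabolism passed in any comparison. Dram1, which encodes a lysosomal membrane protein of autophagy, came nearest. Its log2 levels were 6.01, 6.31 and 6.16 in primary lines, 5.96, 6.01 and 6.14 in lung lines, and 5.81, 5.53 and 5.85 in brain lines. All 3 brain lines were below all other lines, with a change of -0.43 ± 0.11 against primary lines (SE, 3 lines per origin, limma adjusted p = 0.0646). It passed when the dimmest 33.3% of genes were left out before testing. The damage recognition genes Xpc and Ddb2 had changes of -0.02 and -0.08, and Polk, a polymerase that copies damaged DNA, one of -0.02. Xpc was the steadiest member, between 6.78 and 6.92 in all lines. Rrm2b, a subunit of ribonucleotide reductase, had a change of 0.17, Sesn1, an inhibitor of mTORC1, one of -0.04 and Tigar, which lowers glycolytic flux, one of 0.24.

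**Figure D2:**
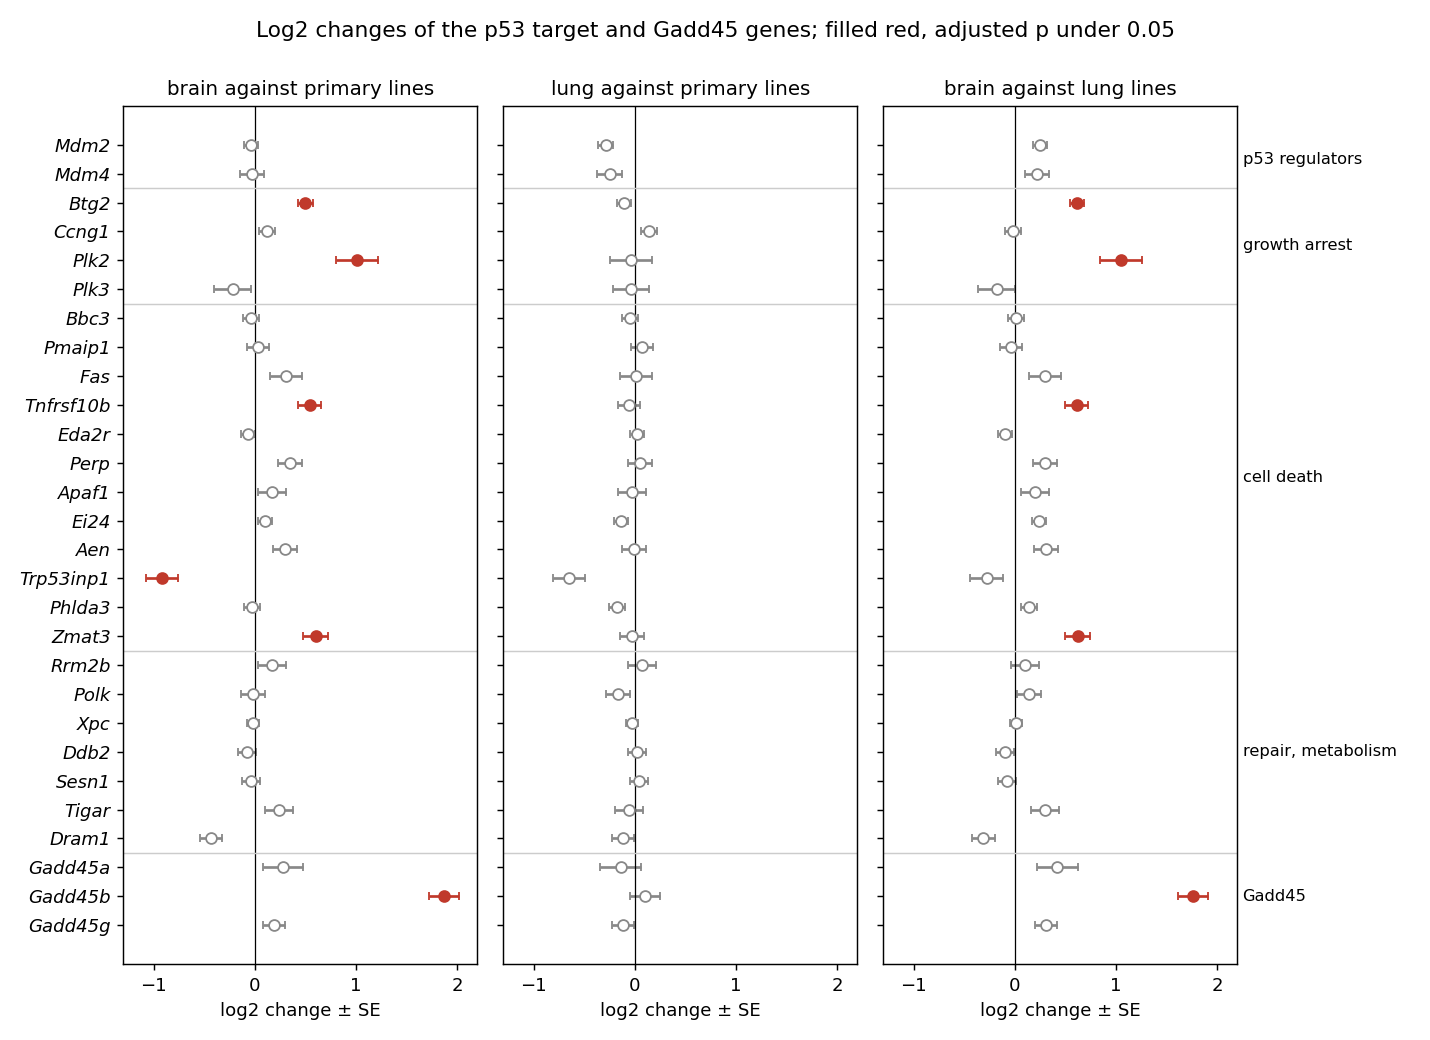
Log2 change (x axis) of each of the 28 genes (y axis, by role) in the 3 comparisons, with bars of 1 SE and filled red points where the limma adjusted p is under 0.05. Brain against primary lines has 6 filled points, brain against lung lines 5 and lung against primary lines none; Fas and Eda2r are plotted although their levels may lie at background.

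Compared with lung lines, 5 of the 28 genes were higher in brain lines, 0 were lower and 23 did not pass. They were Gadd45b, Btg2, Plk2, Zmat3 and Tnfrsf10b, which are 17.9% of the 28, where 1.98% of all genes were called, 0.913% as higher and 1.07% as lower. With the dimmest 33.3% of genes left out before testing, 511 of 13292 genes and the same 5 members were called, again with no count of the members left. At an unadjusted p under 0.05 there were 12 members (42.9%), against 14.9% of all genes. The median log2 change of the 28 was 0.21, against -0.01 over all genes, and 20 lay above 0, where 46.7% of all genes did. Brain and lung lines did not overlap for 12 of the 28 genes (42.9%), 11 of them higher in brain lines, where 16.9% of all genes did not overlap, 8.27% higher and 8.63% lower. The changes of Plk2, Zmat3 and Tnfrsf10b were 1.05 ± 0.21, 0.62 ± 0.12 and 0.61 ± 0.11 (SE, 3 lines per origin, limma adjusted p = 0.0398, 0.0281 and 0.0230). This comparison and the one with primary lines share the brain lines, so they are not independent.

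The calls of these 3 genes against lung lines were not stable when 1 line was left out. For Plk2 this held even for primary lines, which are not in this comparison and without which its change stayed at 1.05. Plk2 passed only when brain line 1 was the line left out (0.0153). It did not pass without primary line 1 (0.0759), 2 (0.0686) or 3 (0.0581), lung line 1 (0.126), 2 (0.104) or 3 (0.0885), or brain line 2 (0.113) or 3 (0.118), in a range up to 0.135 over all alternatives. Tnfrsf10b was lost without lung line 1 (0.0680) or 2 (0.0938) or brain line 2 (0.0527) or 3 (0.0715), within 0.0141 to 0.0938. Zmat3 was lost without primary line 2 (0.0554), lung line 1 (0.0975), 2 (0.0646) or 3 (0.106), or brain line 1 (0.0504), 2 (0.0660) or 3 (0.0517), within 0.0157 to 0.106. The count of called members was 2 without lung line 1 or 2 or brain line 2 or 3, and 3 without lung line 3 or primary line 2. Against primary lines it was 2 without primary line 2 or brain line 2, and 3 without primary line 1 or 3. In each of these fits Gadd45b and Btg2 were among the genes called.

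**Figure D3:**
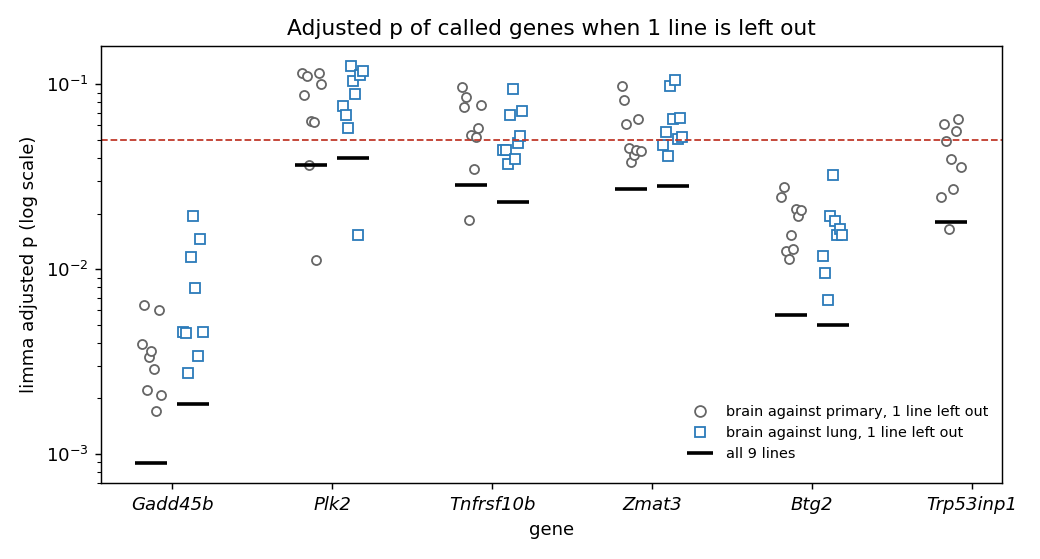
Limma adjusted p on a log axis for each called gene with all 9 lines (black bars) and with 1 line left out (circles, brain against primary lines; squares, brain against lung lines). The dashed line marks 0.05; Gadd45b and Btg2 stay under it in every fit, while Plk2, Tnfrsf10b, Zmat3 and Trp53inp1 have points above it.

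Between lung and primary lines none of the 28 genes passed in limma, as for all genes (0% called, smallest adjusted p 0.975 among the members). Without adjustment, 3 members had a p under 0.05, Mdm2, Trp53inp1 and the Akt repressor gene Phlda3, all lower in lung lines. That is 10.7% of the 28, where 4.74% of all genes had such a p. The median log2 change of the 28 was -0.04, against 0.01 over all genes, and 9 of the 28 lay above 0, where 55.5% of all genes did. Lung and primary lines did not overlap for 4 genes, Mdm2, Btg2, Ei24 and Trp53inp1, each lower in lung lines, which is 14.3% where 8.71% of all genes did not overlap, 4.88% higher and 3.84% lower. For the genes that rose in brain lines, the lung against primary changes were 0.10 ± 0.15 for Gadd45b, -0.11 ± 0.07 for Btg2, -0.04 ± 0.21 for Plk2, -0.06 ± 0.11 for Tnfrsf10b and -0.03 ± 0.12 for Zmat3 (SE, 3 lines per origin).

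Brain line 3 had the highest level of 9 of the 28 genes (32.1%), among them all 3 Gadd45 genes, Plk2 and Tnfrsf10b, and of 16.0% of all genes. Lung line 1 had the lowest level of 8 of the 28 (28.6%) and of 13.5% of all genes. These are the arrays with the widest spread over all genes, and the part of that spread in the levels was not tested. Without brain line 3 the changes in brain against primary lines were 1.73 for Gadd45b, 0.82 for Plk2 and 0.45 for Tnfrsf10b. In brain against primary lines 9 of the 28 genes (32.1%) did not overlap, 7 higher and 2 lower, where 17.8% of all genes did not, 9.36% higher and 8.47% lower. At an unadjusted p under 0.05 there were also 9 members, against 15.8% of all genes.

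**Figure D4:**
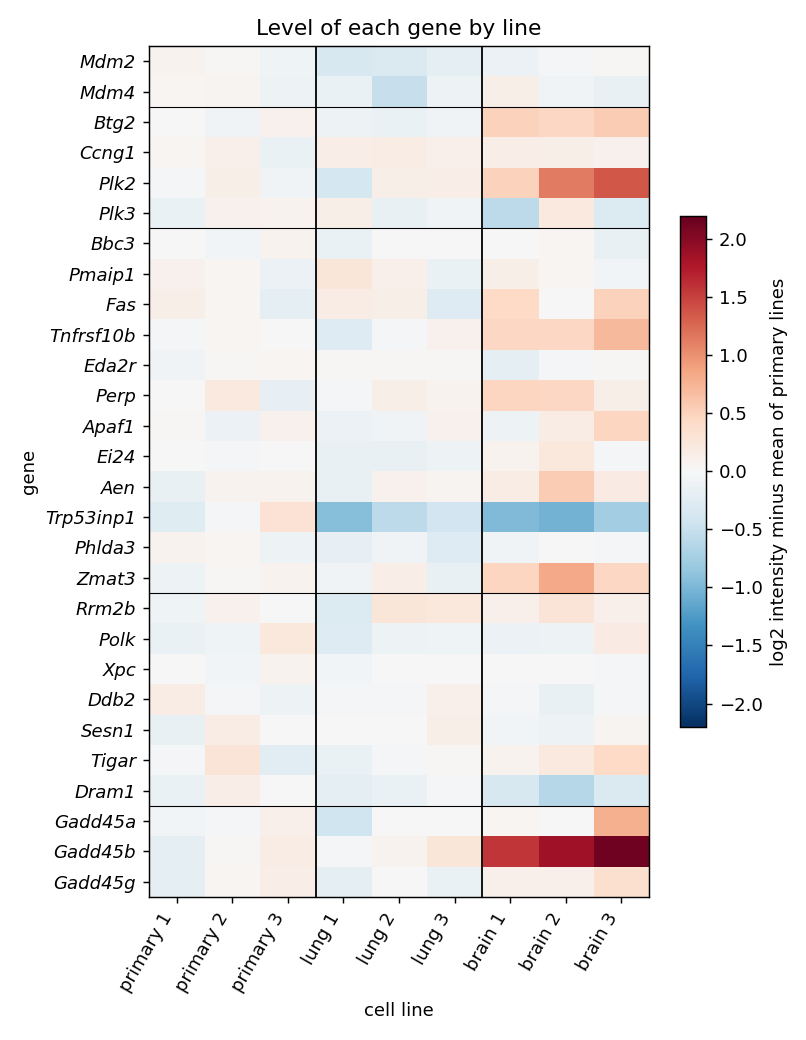
Log2 intensity of each of the 28 genes (rows, by role) in each of the 9 lines (columns) minus the mean of the primary lines. Gadd45b and Plk2 are the deepest red rows in the brain lines, and Trp53inp1 is blue in lung and brain lines.

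Of 68 other genes of the pathway, 59 were measured: regulators and relatives of p53, further p53 targets and partners of the Gadd45 proteins. In brain against primary lines 3 rose, 0 fell and 56 did not pass, which is 5.08% against 3.13% of all genes, and the median log2 change was 0.03. Hipk2, a kinase that phosphorylates p53 and is also active in other pathways, had levels of 7.60, 7.52 and 7.53 in primary, 7.51, 7.75 and 7.68 in lung and 7.98, 8.03 and 8.27 in brain lines. The brain lines were above all others, with a change of 0.55 ± 0.09 against primary lines (SE, 3 lines per origin, limma adjusted p = 0.0152). That call was lost without primary line 2 (0.0639) or 3 (0.0523), within 0.00678 to 0.0639. It was also lost with only the 6 arrays of the comparison (0.0521) and with every probe set tested (0.0544).

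Bid, a BH3-only protein cleaved downstream of death receptors, had levels of 8.18, 7.90 and 7.99 in primary, 7.86, 8.19 and 8.26 in lung and 8.60, 8.51 and 8.64 in brain lines. Its change was 0.56 ± 0.11 against primary lines (SE, 3 lines per origin, limma adjusted p = 0.0301). The call was lost without primary line 2 (0.108) or 3 (0.0949), lung line 2 (0.0528) or brain line 1 (0.0765), 2 (0.0650) or 3 (0.0882). It was also lost with every probe set tested (0.0929), within 0.0157 to 0.108 over all alternatives. Fbxw7, a ubiquitin ligase subunit, changed by 0.34 ± 0.07 against primary lines (limma adjusted p = 0.0342) and by 0.42 ± 0.07 against lung lines (limma adjusted p = 0.0215). Among the fits with 1 line left out, the first of these calls held without lung line 1 or 2 and was lost without primary line 1 (0.102), 2 (0.0873) or 3 (0.0964), lung line 3 (0.0548) or brain line 1 (0.0650), 2 (0.100) or 3 (0.0731). It was also lost with median centring (0.0598) and with an intensity trend and robust prior (0.0549), within 0.0161 to 0.102 over all alternatives. The same held with only the 6 arrays of the comparison (0.0508) and with every probe set tested (0.0798). The second call, against lung lines, was lost without lung line 1 (0.0680) or 3 (0.0750) or brain line 2 (0.0646) or 3 (0.0523), within 0.00900 to 0.0750. It was also lost with only the 6 arrays of that comparison (0.0725) and with every probe set tested (0.0658).

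Against lung lines 2 of the 59 rose, Hipk2 and Fbxw7, 0 fell and 57 did not pass, which is 3.39% against 1.98% of all genes. Hipk2 changed by 0.45 ± 0.09 there (SE, 3 lines per origin, limma adjusted p = 0.0433), and the call was lost whichever line was left out, with adjusted p from 0.0568 without brain line 1 to 0.125 without lung line 1. It was also lost with median centring (0.0775), with only the 6 arrays of the comparison (0.128) and with every probe set tested (0.12). The range over all alternatives was 0.0216 to 0.128. None of the 11 measured Gadd45 partners, such as Map3k4, the kinase that Gadd45 proteins activate, passed in any comparison. Named for their roles after their values were seen, the p53 relatives Trp63 and Trp73 lay at low levels of 4.79 to 5.03 and 4.70 to 4.98 over the 9 lines, and the checkpoint kinase gene Chek1 at 10.12 to 10.33.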

How the data were processed

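The authors' deposited table holds log2 intensities for 35557 probe sets on 9 Affymetrix arrays, and the submitters' processing notes name RMA. The log base is read from the range of the values. No RMA version or build is given in the sources used here. RMA includes quantile normalization, which forces arrays to one distribution. Probe sets with exactly 1 symbol (21789) gave 19938 genes, by the highest-mean probe set per symbol. Limma 3.58.1 in R 4.3.3 (lmFit, eBayes, two-sided) was fitted over the 9 arrays, 1 mean per origin, with 6 residual and 3.72 prior degrees of freedom. An F test covered the 3 origins. Exact permutation of 3 lines against 3 cannot go below p = 0.1, so none is given. The fit was tested on simulated data. Precision is limited by the number of arrays. No detection p is given. Members and lists were chosen with earlier results of these data known. Members called in a contrast, Mdm2 and the probe set covering Cdkn1a are given by line, as are Gadd45a, Gadd45g and Dram1, chosen after their values were seen, and the other members by range or change. Of other pathway genes, those called are given. Promoter sequences are RefSeq's (GRCm38.p6), matched by symbol for 20 of 28 genes. Mouse numbers were checked as pairs: deviations of same-numbered lines correlated across genes at 0.284, 0.130 and 0.241 in brain and lung lines, but not above 0.1 for every number in the other comparisons.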

Additional observations from a re-analysis of the deposited data

How the results depend on the processing

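Gadd45b and Btg2 kept direction and call in all 16 alternatives in both comparisons with brain lines, and no called gene changed sign in any alternative. Against primary lines 6 members were called, against lung lines 5, and by the F test over the 3 origins 6. With every probe set tested, the counts were 2, 2 and 2, and with only the 6 arrays compared they were 2 and 2. The fit to every probe set adjusts for more features, and its SEs differed too. That of Plk2 in brain against primary lines went from 0.21 to 0.23, and that of Btg2 from 0.07 to 0.06. The fit to the 6 arrays has fewer residual degrees of freedom. What lowered the counts in these fits was not tested. Leaving out 1 line gave 2 to 6 against primary lines, 2 to 4 against lung lines and 2 to 4 by the F test. Median centring gave 5 by the F test. Lung against primary lines gave 0 members in all 16 alternatives. Over all genes, the 624 calls against primary lines became 246 with every probe set, 197 with the 6 arrays and 273 to 556 with a line left out; the 395 against lung lines became 92, 107 and 69 to 417, and the 470 by the F test became 92 with every probe set and 160 to 370 with a line left out. With the mouse number as a replicate block, the members called were the same 6 against primary lines, 5 against lung lines and 0 between lung and primary lines. Pairing by number thus changed no call of a member. Over all genes, the block raised the calls to 839 against primary lines and to 566 against lung lines. The SE of the Gadd45b change in brain against primary lines fell from 0.15 to 0.08. Signal limits Btg2, Pmaip1, Fas and Eda2r, whose mean levels were 4.97, 4.98, 3.62 and 3.21 near the 4.21 of unnamed probe sets.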

Other observations

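The probe set annotated to both Cdkn1a, which encodes the cell cycle inhibitor p21, and 4930567H12Rik cannot be assigned to either gene. Its log2 levels were 6.82, 7.01 and 7.03 in primary lines, 6.47, 6.43 and 6.31 in lung lines, and 6.70, 6.99 and 6.24 in brain lines. All 3 lung lines were below all 3 primary lines, and brain line 3 was below all other lines. With every probe set tested, the change was -0.55 ± 0.17 in lung against primary lines (SE, 3 lines per origin, limma adjusted p = 0.996) and -0.31 ± 0.17 in brain against primary lines (limma adjusted p = 0.562), and neither passed.

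Map2k6, the p38 kinase kinase gene in the list of Gadd45 partners, was listed at 4.73, 4.60 and 6.78 in primary lines, 5.87, 4.56 and 4.92 in lung lines, and 3.97, 3.76 and 3.65 in brain lines. Primary line 3 and lung line 1 stood apart from the other lines of their origins, and the brain lines lay below the 4.21 median of unnamed probe sets. It did not pass (limma adjusted p = 0.159 in brain against primary lines). Sfn, the p53 target gene for 14-3-3 sigma, had levels of 8.35, 8.68 and 7.77 in primary lines, 8.47, 8.78 and 8.63 in lung lines and 8.68, 9.35 and 9.24 in brain lines, with overlap between the origins and no call (limma adjusted p = 0.0959 in brain against primary lines). Both genes were singled out after their values were seen.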
